A study of Mus musculus with 4 samples.

Results

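The cells described are non-dividing astroglia, picked from single-cell RNA-seq libraries of mouse embryonic cerebellum because they carried transcripts of Bcan, Slc6a11, Pla2g7, Slc7a10, Aqp4 or Fgfbp3. A barcode with 500 genes or more and no more than 10% of mitochondrial UMIs was kept, a UMI being 1 counted RNA molecule, and it was a member if it held 2 or more UMIs in the sum of these 6 genes. It also had to hold at most 1 UMI of the Bergmann glia genes Gdf10, Timp4, Sfrp2 and Egfl6, none of the oligodendrocyte lineage genes Olig1, Pdgfra and Sox10, and at most 2 of the division genes Mki67, Top2a, Cenpf, Ube2c, Ccnb1 and Nusap1. This gave 1236 members among 24856 kept barcodes. The libraries came from tdTomato-positive cells sorted at E15.5, 2 from En1/2 CKO embryos and 2 from controls, each made from a pool of embryos. The mutants were Ptf1aCre/+; En1lox/lox, En2lox/lox; R26LSL-tdT/+ and the controls Ptf1aCre/+; R26LSL-tdT/+, so both carried the Ptf1a-driven Cre and the tdTomato reporter, and the floxed Engrailed alleles were present in mutants alone. Recombination is limited to cells with a history of Ptf1a-Cre activity, and cells without it keep both Engrailed genes.

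Astrocytes arise from the radial glia that line the ventricles, and in the cerebellum a separate branch forms the Bergmann glia, whose fibres span the cortex. Maturing astroglia take up glutamate, GABA and glycine released by neurons, carry water and potassium across their membranes, supply lipid and lactate, and build the matrix around synapses. Engrailed 1 and 2 are homeodomain transcription factors that pattern the midbrain and cerebellum, and Ptf1a is the factor that commits cerebellar ventricular progenitors to inhibitory neurons, so the sort is aimed at the neuronal lineage and glia form a minor part of it.

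The pair of genes that supplied most of the selecting UMIs were Pla2g7, a secreted phospholipase that cleaves platelet-activating factor, and Bcan, the matrix proteoglycan brevican. Their promoters (RefSeq, GRCm38.p6, 250 bases before to 50 after the start of the gene) are shown because these genes chose the members. Capitals mark ACAAAG, a core bound by SOX factors. The Pla2g7 window lies at chr17:43568201-43568500 on the plus strand and the Bcan window at chr3:88000307-88000606 on the minus strand.
Pla2g7: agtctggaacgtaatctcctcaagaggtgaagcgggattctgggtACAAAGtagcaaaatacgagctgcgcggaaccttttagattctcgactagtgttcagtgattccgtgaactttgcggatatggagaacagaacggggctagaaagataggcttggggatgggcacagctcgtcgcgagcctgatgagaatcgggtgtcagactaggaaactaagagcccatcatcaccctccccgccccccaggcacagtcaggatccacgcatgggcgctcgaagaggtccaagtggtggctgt
Bcan: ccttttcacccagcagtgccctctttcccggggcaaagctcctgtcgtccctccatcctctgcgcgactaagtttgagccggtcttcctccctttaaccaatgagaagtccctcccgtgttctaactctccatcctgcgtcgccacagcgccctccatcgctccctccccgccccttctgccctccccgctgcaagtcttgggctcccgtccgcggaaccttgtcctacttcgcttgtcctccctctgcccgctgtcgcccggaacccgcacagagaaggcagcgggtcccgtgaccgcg
Both strands were searched for ACAAAG, for the homeodomain core TAATTA, for the NFI half-site TTGGCA and for TATAAA. Pla2g7 held 1 ACAAAG and none of the other 3 motifs, and Bcan held none of the 4. Among 32851 mouse promoters of the same length, 18.7% held ACAAAG, 5.29% TAATTA, 14.1% TTGGCA and 13.6% TATAAA. The Bcan window is 64% G and C and the Pla2g7 window 54%.

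The libraries differed in depth and quality in ways that touch the results. The deposited counts held 20724086 and 21021428 UMIs in the mutants, against 15470932 and 5305154 in the controls. Control replicate 2 stood apart: 25.5% of its barcodes were kept, against 63.9% to 94.6% in the other libraries, and the median mitochondrial share over all its barcodes was 13.4%, against 3.15% to 5.88%. It gave 60 members with 134222 UMIs in all, so that 3 counts in its astroglia amount to 22.4 CPM (a gene's UMIs after scaling each group of cells to the same total), against 2.73 to 5.79 CPM in the other libraries. The members' median depth was 1779 and 1088 UMIs in mutants, against 1348 and 2249.5 UMIs in controls. No barcode was shared between the members of different libraries.

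Pla2g7 carried most of the selection. It was detected in 1067 members (86.3%) and supplied 58.8% of the selecting UMIs, while Bcan was detected in 585 members (47.3%). The glycine, serine and alanine transporter gene Slc7a10 was detected in 302 members, the GABA transporter gene Slc6a11 in 230, Fgfbp3, which encodes an FGF-binding protein, in 219, and Aqp4, the water channel of astrocyte endfeet, in 65 (5.26%). In microglial cells of the same libraries, which had median depths of 3327 to 4535 UMIs, Pla2g7 was detected in 10.5% to 15.6%, Bcan in 0% to 8.25% and Aqp4 in 0% to 1.94%. Whether the Pla2g7 there was free RNA or RNA of the microglial cells themselves was not tested. Pla2g7 was the sole selecting gene in 34.9% and 24.0% of mutant members and in 31.6% and 26.7% of control members. Bcan and Pla2g7 were detected together in 481 members. As Aqp4 was present in so few members and Bcan and Pla2g7 together in a minority, the cells are not named by these genes and are called astroglia here.

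The levels of the selecting genes are descriptions, with no test against other cells, since they chose the members. Pla2g7 stood at 819 and 1455 CPM in mutant astroglia, against 1782 and 797 CPM in control astroglia, and at 159 to 282 CPM in the other kept cells. Bcan stood at 226 and 550 CPM in mutants, against 635 and 417 CPM in controls. For both genes the mutant and control ranges overlapped. Slc6a11 stood at 52.7 and 155 CPM in mutants, against 151 and 89.4 CPM in controls. Slc7a10 stood at 148 and 215 CPM in mutants, against 151 and 67.1 CPM in controls. Fgfbp3 stood at 84.5 and 144 CPM in mutants, against 154 and 119 CPM in controls. Aqp4 stood at 30.9 and 39.0 CPM in mutants, against 36.7 and 7.45 CPM in controls, the last value being 1 UMI. For each of the 6 genes the genotypes overlapped.

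Mfge8, which encodes a secreted bridge to phosphatidylserine used in engulfment, belongs to the marker set of these cells and was not used to choose them. Mfge8 stood at 591 and 1119 CPM in mutant astroglia, against 1076 and 730 CPM in control astroglia, and at 165 to 331 CPM in the other kept cells. In each of the 4 libraries the astroglia were above the other kept cells taken as a whole. Related cells were nearer. Cells with 2 or more selecting UMIs that failed the Bergmann, oligodendrocyte or division limit held Mfge8 at 584 and 792 CPM in mutants, against 942 and 625 CPM in controls. Radial glial progenitors, defined below and without cells of other types, held it at 324 and 549 CPM in mutants, against 437 and 445 CPM in controls. Gfap, the intermediate filament gene of mature and reactive astrocytes, had 0 UMIs in 1236 members, which allows a share of members with a UMI of up to 0.243%. Agt, angiotensinogen, a marker of non-telencephalic astrocytes in the adult, was also at 0 in all 4 libraries.

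**Figure D1:**
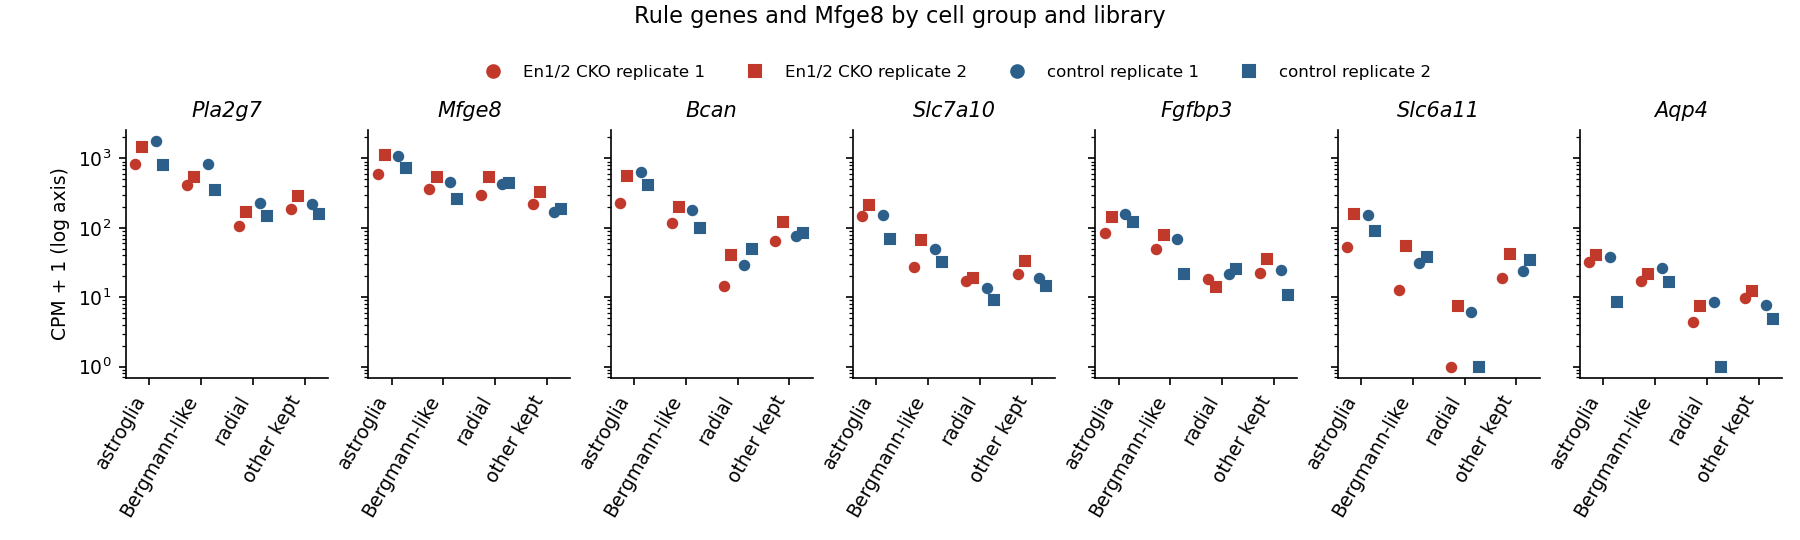
Levels of the 6 selecting genes and of Mfge8 (CPM + 1, log axis) in astroglia, Bergmann-like glia, radial glial progenitors and the other kept cells. Each point is 1 library, and Mfge8, which was not used for the choice, stood at 591 to 1119 CPM in astroglia, against 165 to 331 CPM in the other cells.

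The threshold of 2 UMIs cuts through a gradient. Members with exactly 2 selecting UMIs made up 41.5% and 38.4% of mutant astroglia and 44.4% and 46.7% of control astroglia. In these members the 12 astroglia markers that took no part in the choice summed to 1706 and 1705 CPM in mutants, against 2528 and 2312 CPM in controls. Cells just outside, with 1 selecting UMI and every other criterion met, had sums of 866 and 1053 CPM in mutants, against 1146 and 1248 CPM in controls. Members with 3 or more selecting UMIs had sums of 2703 and 4225 CPM in mutants, against 4711 and 3468 CPM in controls. The pan-neuronal markers ran the other way. They summed to 2055 and 4189 CPM in all mutant members, against 4144 and 1512 CPM in all control members. Just outside they summed to 6325 and 7633 CPM in mutant cells, against 7557 and 4386 CPM in control cells. Many members still held neuronal RNA. Tubb3 was detected in 62.4% and 77.0% of mutant members, against 85.9% and 36.7% of control members. At most 5 pan-neuronal UMIs were held by 260 of 335 and 384 of 521 mutant members, against 167 of 320 and 51 of 60 control members. The 12 astroglia markers did not set members apart from cells with 2 or more selecting UMIs that failed another limit. They summed to 2288 and 3242 CPM in all mutant members, against 3766 and 2950 CPM in control members. The cells that failed another limit had sums of 2577 and 2987 CPM in mutants, against 4296 and 2880 CPM in controls. As the same selecting UMIs picked them, this comparison does not cover other related glia.

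Besides the selecting genes, the transcripts that led the astroglia over all other kept cells encode proteins of several kinds. The ratios here set the mean CPM over the 4 libraries plus 10 against the same in the other cells, and are descriptions. Slc14a2, a urea transporter gene, had a ratio of 5.78 and stood at 86.3 and 215 CPM in mutants, against 180 and 179 CPM in controls. Ednrb, the endothelin B receptor gene of radial glia and astrocytes, had a ratio of 3.73 and stood at 1198 and 1393 CPM in mutants, against 1609 and 1609 CPM in controls. Nid1, which encodes the basement membrane protein nidogen, had a ratio of 4.28 and stood at 365 and 441 CPM in mutants, against 651 and 812 CPM in controls. Vcam1, an adhesion molecule, had a ratio of 3.76, as did Mfge8, and Mt3, the neural metallothionein, a ratio of 3.62. Luzp2, which encodes a secreted leucine zipper protein, had a ratio of 3.59. Nid1 was also high in related glia. In the radial glial progenitors defined below, Nid1 stood at 308 and 378 CPM in mutants, against 567 and 494 CPM in controls. Ednrb stood there at 1037 and 1438 CPM in mutants, against 1667 and 1344 CPM in controls. It was among the genes that chose the radial progenitors, so its level in them is no result. Clu, clusterin, had a ratio of 5.52, but its 480 and 223 CPM in mutants, against 124 and 104 CPM in controls, drew on a few choroid plexus-type members described below, and without them it stood at 82.8 and 179 CPM in mutants, against 132 and 107 CPM in controls.

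Set beside Bergmann-like glia, which were taken as cells with at least 2 UMIs of Gdf10, Timp4, Sfrp2 and Egfl6 under the same other limits, the astroglia had more Igfbp2, an insulin-like growth factor binding protein (ratio 2.31), Meis2, a homeodomain factor (3.02), and Apoe, the main lipid carrier of the brain (3.64). Meis2 stood at 139 and 243 CPM in mutant astroglia and 191 and 209 CPM in control astroglia, against 49.4 and 73.7 CPM in mutant and 67.2 and 41.7 CPM in control Bergmann-like glia. A gene was listed in this comparison only if its direction was the same in all 4 libraries, so that agreement is no result. Lower in astroglia, beside the genes the choice fixed, were Gucy1a1, a subunit of the nitric oxide receptor (ratio 0.353), Slitrk5, a synaptic adhesion molecule (0.356), and Fgf15 (0.357).

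Set beside radial glial progenitors, taken as cells with at least 4 UMIs of Hes5, Hes1, Slc1a3, Sox9 and Ednrb and at most 1 selecting UMI, the astroglia had more Ncan, the matrix proteoglycan neurocan (ratio 3.36). Gadd45g (ratio 0.514) and Hes6 (0.532), both associated with neuronal commitment, and Sox1 (0.546), a neural progenitor factor, were lower in astroglia. The same direction in all 4 libraries was a condition for listing a gene here, so that agreement is no result.

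Some members carried the genes of other cell types, unequally between genotypes. At least 10 UMIs of the choroid plexus markers were present in 26 and 9 mutant members, against 0 and 0 control members. These cells were large and held 23.9% and 4.35% of all astroglial UMIs of the mutants. The choroid plexus markers summed to 72733 and 11299 CPM in mutant astroglia, against 77.2 and 74.5 CPM in control astroglia. At least 10 UMIs of the ependymal markers were present in 23 and 3 mutant members, 22 and 3 of which were choroid plexus-type cells too, against 0 and 0 control members. Microglial markers passed the same limit in 1 and 8 mutant members, against 3 and 1 control members, vascular markers in 0 and 0 against 2 and 0, and erythroid markers in 5 and 3 against 2 and 0. In control replicate 1, 2 members held 86.4% of the erythroid UMIs. Leaving out every member over the limit for any of the 5 lists left 303 and 502 mutant astroglia, against 313 and 59 control astroglia, and the choroid plexus sum then stood at 143 and 90.0 CPM in mutants, against 82.4 and 76.2 CPM in controls. Values below are for all members unless they are given as without these other-type cells.

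**Figure D2:**
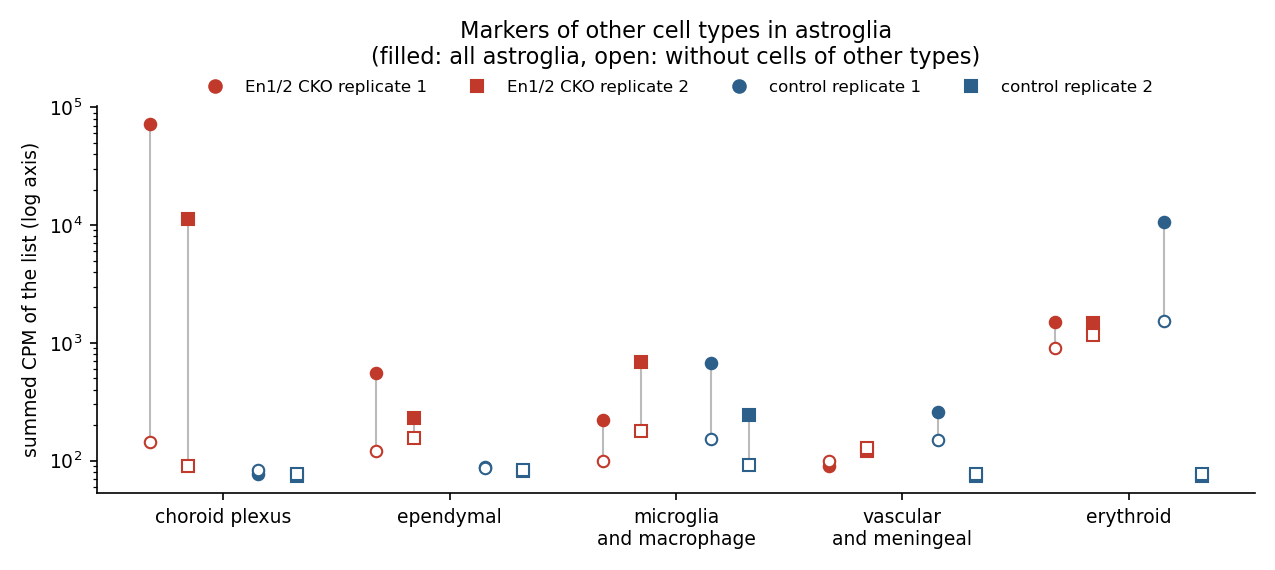
Summed CPM (log axis) of the choroid plexus, ependymal, microglial, vascular and erythroid marker lists in the astroglia of each library, for all members (filled) and without members holding at least 10 UMIs of any list (open). The choroid plexus sums of 72733 and 11299 CPM in all mutant astroglia, against 77.2 and 74.5 CPM in control astroglia, fall to 143 and 90.0 CPM without those members.

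The first comparison asks whether the loss of Engrailed in the Ptf1a lineage goes with another share of astroglia among the sorted cells. Astroglia made up 6.40% and 6.48% of kept cells in mutants, against 3.08% and 5.10% in controls. Both mutants were above both controls, with means of 6.44 ± 0.057% in mutants and 4.09 ± 1.43% in controls (SD, n = 2 each), a difference of 2.35 percentage points. The exact 2-sided permutation test gave p = 0.333, the smallest that 2 against 2 libraries allow. With cells thinned to 1000 UMIs, which puts the threshold on an equal depth and leaves 4071 and 4720 mutant cells, against 7610 and 1014 control cells, the shares were 4.03% and 6.19% in mutants, against 3.71% and 3.35% in controls. Under a stricter limit of 1000 genes and 5% mitochondrial UMIs they were 5.84% and 4.76% in mutants, against 4.39% and 6.04% in controls, and the difference fell to 0.085 points (p = 1, exact permutation). The share of Bergmann-like glia differed as well, at 10.3% and 8.37% in mutants, against 5.84% and 6.80% in controls, again with both mutants above both controls. Radial progenitors made up 6.07% and 4.14% in mutants, against 2.59% and 5.78% in controls. The share of kept cells depends on every other cell type in the sort, and in the sum of the 3 glial groups astroglia made up 28.1% and 34.1% in mutants, against 26.8% and 28.8% in controls.

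**Figure D3:**
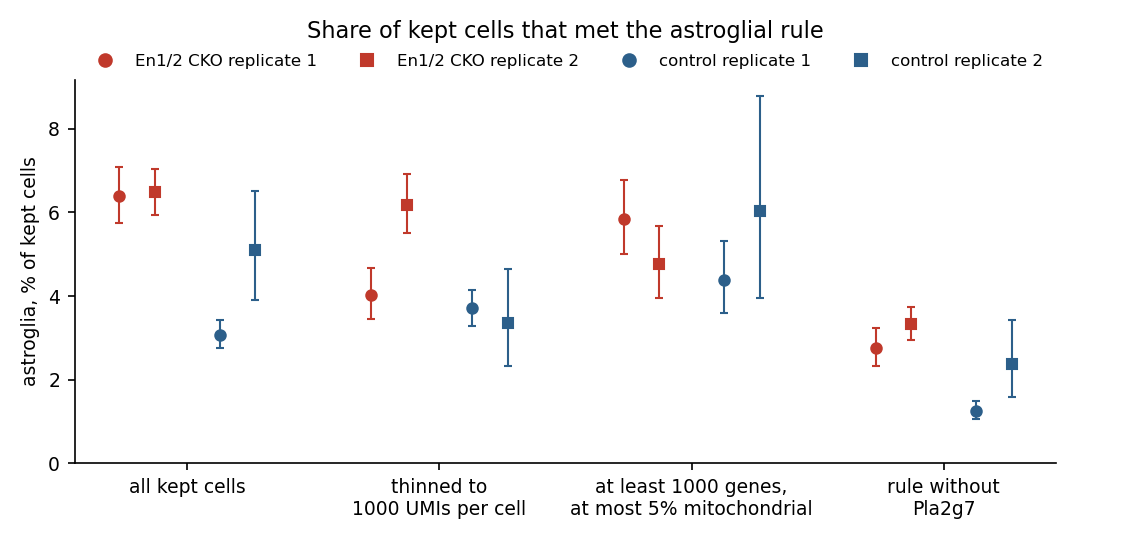
Share of kept cells that are astroglia in each library, with exact Clopper-Pearson 95% intervals that cover counting error alone, under 4 settings. The mutants' 6.40% and 6.48% lie above the controls' 3.08% and 5.10% under the main filter, while under the stricter cell filter the groups overlap.

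Within the astroglia, UMIs were summed per library and compared between genotypes across 8975 genes. edgeR's quasi-likelihood test called 0 genes at an adjusted p under 0.05 (0.0% of genes tested). An unadjusted p under 0.05 was reached by 367 genes (4.09%), 193 higher and 174 lower in mutants, and DESeq2 called 7 genes (0.078%), of which 6 were higher. Without other-type cells, 0 of 8356 genes were called (0.0%) and 270 had an unadjusted p under 0.05 (3.23%). Leaving out the first or the second control library as well gave 152 and 246 calls, the second mutant library 0 and the first 1. The common coefficient of variation between libraries was 0.228 with all 4, 0.133 without either control and 0.365 without either mutant, so the controls differed more from each other than the mutants did. In such sums, fewer cells that express a gene and less RNA of it per cell cannot be told apart, and p-values measure the spread between pools, since the number of embryos in each is not given. On simulated data of the same depth, 57% of 4-fold and 7% of 2-fold changes were recovered by edgeR, with 2 false calls.

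The targeted genes were the first to be looked at. En1 stood at 29.1 and 31.8 CPM in mutant astroglia, against 65.7 and 59.6 CPM in control astroglia, which gives log2 -1.05 for mutant over control (SE 0.35, unadjusted p = 0.0164 in edgeR, adjusted p = 1.00). En2 stood at 21.8 and 18.5 CPM in mutants, against 65.7 and 14.9 CPM in controls. En1 was lower in both mutants, whereas the groups overlapped for En2. The libraries count 3' ends and the exons removed are not given in the labels, so these levels do not check the genotype. The reporter TdTom stood at 476 and 526 CPM in mutants, against 357 and 544 CPM in controls, and Ptf1a at 21.8 and 12.3 CPM in mutants, against 9.65 and 0 CPM in controls. TdTom was detected in 51.9% and 39.7% of mutant astroglia, against 39.7% and 53.3% of control astroglia. In the deeper microglial cells it was detected in 84.4% and 87.9% in mutants, against 63.2% and 89.1% in controls. Detection of TdTom is therefore not read here as a mark of a recombined cell.

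Most of the genes with the smallest p for a higher level in mutants were genes of the choroid plexus, the epithelium that secretes cerebrospinal fluid. Ttr, the thyroid hormone carrier transthyretin, stood at 71094 and 10962 CPM in mutants, against 17.4 and 7.45 CPM in controls, which gives log2 11.48 for mutant over control (SE 1.36, adjusted p = 0.187 in edgeR and 7.97e-12 in DESeq2), and 1.73 without other-type cells. Ecrg4, a secreted peptide precursor of that epithelium, stood at 396 and 116 CPM in mutants, against 11.6 and 14.9 CPM in controls, and at 21.9 and 42.2 CPM in mutants, against 12.4 and 15.2 CPM in controls, without these cells. Htr2c, the serotonin 2C receptor, stood at 161 and 40.0 CPM in mutants and had 0 UMIs in controls, at least 22.6-fold higher against the floor of 3 counts over the group. Calml4, Slc4a5, Npnt and Fabp3 had log2 fold changes of 3.88, 4.96, 3.53 and 3.67 (adjusted p = 1.00 in edgeR for each). Without other-type cells Calml4 had a log2 fold change of 1.10, and Htr2c, Slc4a5, Npnt and Fabp3 had at most 7 UMIs in a library and were too low to be tested. Of 12 choroid plexus markers, 9 were high enough to be tested in all members and 3 without other-type cells, 2 of which had higher levels in mutants. Of 12 ependymal markers, 7 could be tested in all members and 2 without other-type cells, both with higher levels in mutants. Other kept cells held choroid plexus-type cells as well, 56 and 100 in mutants, against 2 and 0 in controls. Whether those cells were more frequent in the mutant cerebella or entered the dissection or sort was not tested.

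Other named genes differed by about as much without other-type cells, and none of them passed adjustment. Pfdn6, a subunit of the prefoldin chaperone, stood at 80.0 and 78.0 CPM in mutants, against 17.4 and 14.9 CPM in controls, which gives log2 2.24 for mutant over control (SE 0.42), and 2.18 without other-type cells (adjusted p = 1.00 in edgeR for both). The control levels rest on 9 and 2 UMIs. In Bergmann-like glia Pfdn6 stood at 81.9 and 95.6 CPM in mutants, against 64.3 and 73.0 CPM in controls. The predicted gene Gm10076, whose reads may be shared with copies elsewhere, stood at 267 and 570 CPM in mutants, against 63.7 and 96.9 CPM in controls. It was as far apart in the other kept cells, with 242 and 657 CPM in mutants, against 78.0 and 77.9 CPM in controls. The predicted gene Gm10260, with the same limit, had a log2 fold change of 1.83 in astroglia.

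Among genes with lower levels in mutants, Tmem14c, a mitochondrial membrane protein of haem synthesis, stood at 54.5 and 44.1 CPM in mutants, against 185 and 104 CPM in controls (log2 fold change -1.62, and -1.47 without other-type cells). In the other kept cells Tmem14c stood at 46.5 and 35.5 CPM in mutants, against 122 and 104 CPM in controls, so both groups of cells showed the same order of libraries. BC005561 stood at 102 and 128 CPM in mutants, against 245 and 246 CPM in controls (log2 fold change -1.09, and -1.03 without other-type cells). In the other kept cells BC005561 stood at 128 and 131 CPM in mutants, against 235 and 213 CPM in controls. BC005561 lies on chromosome 5, as En2 does, 76.3 Mb from it, and how much of that chromosome came with the floxed allele is not given in the labels. Fstl5, a follistatin-like gene, stood at 12.7 and 16.4 CPM in mutants, against 40.6 and 67.1 CPM in controls (log2 fold change -1.72, and -1.57 without other-type cells). In Bergmann-like glia Fstl5 stood at 12.2 and 14.6 CPM in mutants, against 16.3 and 5.21 CPM in controls, where the groups overlapped. Lyz2, Ms4a6c and Cd52 are macrophage genes, and the microglial markers summed to 222 and 688 CPM in mutant astroglia, against 680 and 246 CPM in control astroglia. Without other-type cells Lyz2 had 0 and 0 UMIs in mutants, against 0 and 1 UMI in controls, Cd52 had 1 UMI in all and Ms4a6c none. Jdp2, Gng11, Snhg9 and Tmem91 had log2 fold changes of -2.77, -2.24, -2.32 and -2.31. All of these genes had an adjusted p = 1.00 in edgeR.

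The gene groups of astroglial function were read as counts of direction, beside all genes tested, of which 47.5% had a log2 fold change above 0. Genes that the choice of members used, to select or to limit, were left out of the counts and medians. In no group did a gene pass adjustment. Of 15 glycolysis and energy genes tested, 13 had higher levels in mutants (median log2 fold change 0.44, against -0.03 over all genes), and 12 did without other-type cells (median 0.34). Both mutants were above both controls for 8 of the 15, against 17.3% of all genes. The group summed to 7216 and 6894 CPM in mutants, against 5774 and 5580 CPM in controls. In the other kept cells, the same genes summed to 6903 and 7021 CPM in mutants, against 6393 and 5832 CPM in controls. Bergmann-like glia had sums of 8545 and 7887 CPM in mutants, against 7149 and 6858 CPM in controls. Both mutants were thus above both controls in astroglia, in the other kept cells as a whole and in Bergmann-like glia. The genotypes overlapped in radial progenitors, with 7550 and 6694 CPM in mutants, against 6484 and 7149 CPM in controls. Ckb, the brain creatine kinase gene, stood at 1708 and 1926 CPM in mutants, against 1717 and 1356 CPM in controls. Aldoc, the aldolase of astroglia and Purkinje cells, stood at 503 and 607 CPM in mutants, against 253 and 611 CPM in controls. For both named genes the genotypes overlapped.

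Of 14 metallothionein and antioxidant genes tested, 10 had higher levels in mutants (median log2 fold change 0.50, and 0.50 without other-type cells), and for 7 of the 14 both mutants were above both controls, against the same 17.3% of all genes. The group summed to 3014 and 2758 CPM in mutants, against 2086 and 4358 CPM in controls, so that the sums of the mutants lay between those of the controls. Mt3 itself was not among the higher ones and stood at 1033 and 984 CPM in mutants, against 630 and 2824 CPM in controls. The control libraries here were further apart than the genotypes. Of 26 cholesterol and lipid genes, 19 had higher levels in mutants, with a median log2 fold change of 0.12, and 18 did without other-type cells, with a median of 0.13. Fabp7, the brain fatty acid binding protein of radial glia, stood at 8267 and 7496 CPM in mutants, against 3350 and 24154 CPM in controls. Dbi, which encodes acyl-CoA binding protein, stood at 3760 and 3612 CPM in mutants, against 1883 and 5409 CPM in controls. Control replicate 2 was the highest library for Fabp7, Dbi and Mt3, and control replicate 1 the lowest, so the mutants lay between the controls.

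The extracellular matrix genes leaned the other way: 14 of 16 had lower levels in mutants, with a median log2 fold change of -0.24, and 12 of 16 without other-type cells, with a median of -0.12. None of the 16 had an unadjusted p under 0.05. Ptprz1, a receptor phosphatase that is also shed as the matrix proteoglycan phosphacan, stood at 756 and 1038 CPM in mutants, against 1276 and 1252 CPM in controls. Sparcl1, hevin, a secreted protein of synapse assembly, stood at 725 and 720 CPM in mutants, against 1415 and 887 CPM in controls. In all members, both mutants were below both controls for these 2 genes. The same held for 4 of the 16 matrix genes, against 1416 of all 8975 genes. These levels include the other-type cells, which held 25.4% and 7.63% of astroglial UMIs in mutants, against 6.20% and 2.28% in controls. Cspg5, neuroglycan C, stood at 720 and 1001 CPM in mutants, against 1466 and 432 CPM in controls, and Sparc at 1468 and 1246 CPM in mutants, against 1786 and 983 CPM in controls. The genotypes overlapped for Cspg5 and Sparc.

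Uptake, channel and synapse genes showed small medians. Of 18 genes of glutamate, GABA and glycine handling, 8 had higher and 10 lower levels in mutants (median log2 fold change -0.15, and -0.16 without other-type cells). Slc1a3, the glutamate transporter GLAST, stood at 701 and 1209 CPM in mutants, against 1342 and 1222 CPM in controls. Of 15 genes for water, potassium and gap junctions, 5 had higher and 10 lower levels (median -0.09, and -0.11 without other-type cells). Of 15 secreted or engulfment genes that act at synapses, 4 had higher and 11 lower levels (median -0.07), and 5 and 8 of 13 did without other-type cells (median -0.0067). Ptn, pleiotrophin, stood at 10200 and 16127 CPM in mutants, against 14539 and 19401 CPM in controls.

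**Figure D4:**
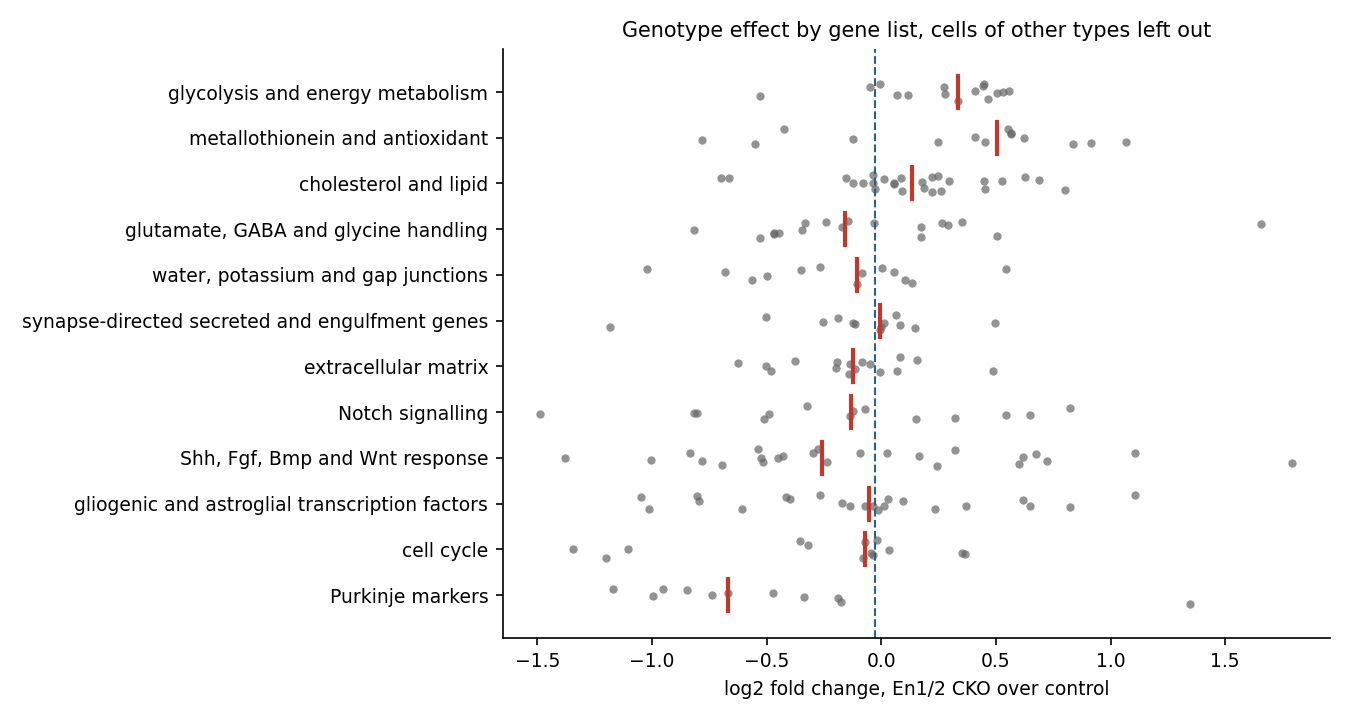
Log2 fold change (En1/2 CKO over control) of each tested gene in the gene groups, in astroglia without other-type cells and without the genes used to choose the members. Each point is a gene, the red bar the group's median and the dashed line the median of all genes; glycolysis lies above that line with a median of 0.34 and the Purkinje markers below it with a median of -0.67.

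Regulators of glial fate were spread widely among the controls. Of 22 gliogenic transcription factors, 6 had higher and 16 lower levels in mutants (median log2 fold change -0.12), and 9 and 13 did without other-type cells (median -0.054). Nfia, a nuclear factor I gene that switches progenitors to gliogenesis, stood at 273 and 283 CPM in mutants, against 199 and 1080 CPM in controls. Of 14 Notch pathway genes, 5 had higher and 9 lower levels (median -0.24, and -0.13 without other-type cells). Hes5, a Notch effector, stood at 411 and 399 CPM in mutants, against 319 and 238 CPM in controls, and Notch2 at 59.1 and 87.2 CPM in mutants, against 30.9 and 410 CPM in controls. Both mutants were above both controls for Hes5, while for Nfia and Notch2 they lay between the controls. Of 24 Shh, Fgf, Bmp and Wnt response genes, 9 had higher and 15 lower levels (median -0.22, and -0.26 without other-type cells). Of 9 reactive astroglial genes, 5 had higher levels (median 0.25), and 8 did without other-type cells (median 0.57). Vim, vimentin, stood at 2521 and 2156 CPM in mutants, against 1753 and 1788 CPM in controls.

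Marker sets of Purkinje cells and of division leaned the same way as the matrix genes. Of 11 Purkinje cell markers tested, 10 had lower levels in mutants (median log2 fold change -0.78, and -0.67 without other-type cells), and 3 had an unadjusted p under 0.05, against 4.09% of all genes, and 1 without other-type cells, against 3.23%. They summed to 673 and 744 CPM in mutant astroglia, against 1122 and 1006 CPM in control astroglia. In the other kept cells the same markers summed to 1444 and 1346 CPM in mutants, against 2429 and 2014 CPM in controls. The 2 groups of cells showed the same direction, and whether free RNA or mixed droplets carried it into the astroglia was not tested. The gene Ebf1, a factor of early Purkinje cells, stood at 229 and 288 CPM in mutant astroglia, against 496 and 387 CPM in control astroglia. Of 14 cell cycle genes other than the division genes that limited the choice, 12 had lower levels in mutants (median -0.16), and 10 of 13 did without other-type cells (median -0.07). These genes act in the same dividing cells as the limiting ones, so their counts are a description.

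The next comparison asks whether the difference between genotypes was another one in astroglia than in Bergmann-like glia of the same libraries. Of the genes that chose the Bergmann-like glia, Gdf10 stood at 149 and 146 CPM in their mutants, against 630 and 537 CPM in their controls. The genotypes overlapped there for Sfrp2, Timp4 and Egfl6. The Bergmann-like groups of the genotypes may thus be made up differently, and how this bears on the interactions was not tested. The interaction, with the library as a block, was called for 12 of 10491 genes (0.114%), 7 with a positive and 5 with a negative difference. Without other-type cells in either group, 6 of 9959 genes were called (0.0602%), 4 positive and 2 negative. On counts simulated from all cells, genes without a difference gave 8 false calls in this comparison. The setting without other-type cells was not simulated, so how many of the 6 calls may be false is not known. Among the 12 calls in all cells, Enpp2 and Sostdc1 are genes of the choroid plexus. Another 4, Hba-x, Hba-a1, Hbb-y and Hba-a2, are haemoglobin genes. Of these, Hba-a1 and Hba-a2 are near-identical copies that can share reads. The genes Pcp4l1 and Atp1b1 lie on chromosome 1, as En1 does, 50.6 and 43.8 Mb from it. Their differences of 4.36 and 1.62 in all cells stood at 0.92 and 0.96 without other-type cells, and neither was called there. Pcp4l1 fell from 144 and 52.3 CPM in all mutant astroglia to 7.31 and 11.1 CPM without other-type cells, as did the choroid plexus genes. In control astroglia it then stood at 12.4 and 0 CPM. The 6 calls without other-type cells were Slc1a3, Luzp2, Igfbpl1, Iqce, Mt3 and Pde4d, and of these Luzp2 and Iqce were also called in all cells.

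Slc1a3 had the smallest p. Without other-type cells it stood at 904 and 1302 CPM in mutant astroglia, against 1420 and 1250 CPM in control astroglia. In Bergmann-like glia, which depend on this transporter to clear glutamate at Purkinje cell synapses, it stood at 1324 and 1451 CPM in mutants, against 3037 and 2611 CPM in controls. The genotypes overlapped in astroglia, and in Bergmann-like glia both mutants were below both controls. The difference between the log2 fold changes was 0.74 (SE 0.12, adjusted p = 9.45e-05 in edgeR). With all cells it was 0.62 (SE 0.18, adjusted p = 0.369 in edgeR), so the call depends on leaving out the other-type cells. Without the second mutant library as well it was 0.51 (adjusted p = 0.944 in edgeR).

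Luzp2 went the other way. Without other-type cells it stood at 769 and 616 CPM in mutant astroglia, against 1003 and 1060 CPM in control astroglia. In Bergmann-like glia Luzp2 stood at 503 and 568 CPM in mutants, against 501 and 474 CPM in controls. Both mutants were below both controls in astroglia, and in Bergmann-like glia both were above both by a narrow margin. The difference between the log2 fold changes was -0.68 (SE 0.14, adjusted p = 0.00825 in edgeR), and in all cells -0.83 (SE 0.16, adjusted p = 0.0160 in edgeR). The call was lost without the second mutant library (-0.47, adjusted p = 1.00 in edgeR), without the first control (adjusted p = 0.0988 in edgeR) and with cells thinned to 1000 UMIs (-0.40, adjusted p = 0.999 in edgeR). In radial progenitors Luzp2 stood at 315 and 467 CPM in mutants, against 681 and 632 CPM in controls, again with both mutants below both controls.

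The promoters of these 2 genes are shown because their genotype effects differed in opposite directions between the glial groups. Capitals mark the homeodomain core TAATTA, searched on both strands, which 5.29% of all promoters of this length hold, and which each window held 1 time. The Luzp2 window lies at chr7:54834995-54835294 on the plus strand and the Slc1a3 window at chr15:8710758-8711057 on the minus strand (GRCm38.p6, RefSeq).
Luzp2: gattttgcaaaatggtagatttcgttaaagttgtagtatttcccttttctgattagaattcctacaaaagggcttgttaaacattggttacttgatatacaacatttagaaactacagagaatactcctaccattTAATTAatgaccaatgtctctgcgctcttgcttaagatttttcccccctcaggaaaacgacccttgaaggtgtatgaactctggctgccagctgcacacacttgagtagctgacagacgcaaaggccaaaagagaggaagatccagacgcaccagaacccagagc
Slc1a3: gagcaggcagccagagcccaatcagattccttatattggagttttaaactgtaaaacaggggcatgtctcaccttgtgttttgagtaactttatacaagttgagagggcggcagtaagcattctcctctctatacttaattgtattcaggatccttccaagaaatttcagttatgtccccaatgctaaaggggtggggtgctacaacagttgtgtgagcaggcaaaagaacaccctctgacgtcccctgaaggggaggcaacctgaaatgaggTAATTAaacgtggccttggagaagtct
A match of these letters is a description of the window and shows no binding.

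**Figure D5:**
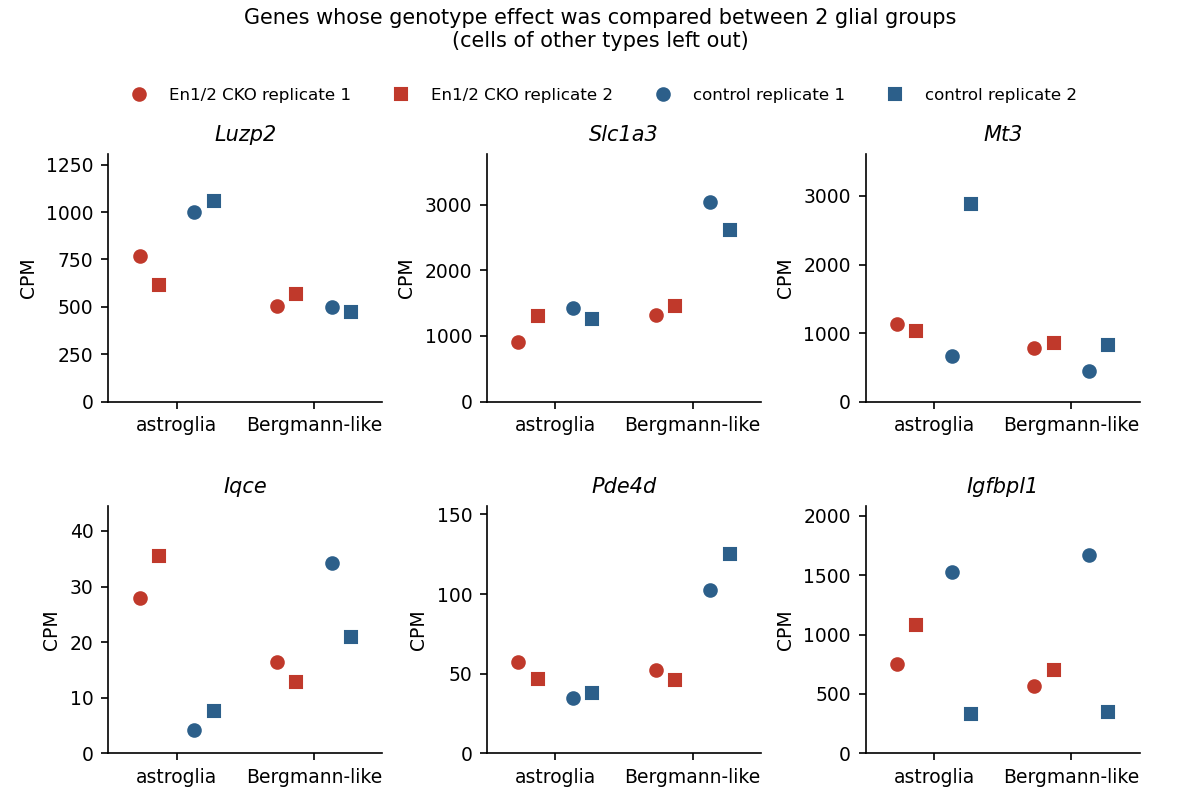
CPM of Luzp2, Slc1a3, Mt3, Iqce, Pde4d and Igfbpl1 in astroglia and Bergmann-like glia, without other-type cells, 1 point per library. Luzp2 lies at 769 and 616 CPM in mutant astroglia, against 1003 and 1060 CPM in control astroglia, while Slc1a3 separates the genotypes in Bergmann-like glia.

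The other 4 calls were less even. Mt3 stood at 1127 and 1027 CPM in mutant astroglia, against 661 and 2890 CPM in control astroglia, and at 785 and 855 CPM in mutant and 453 and 829 CPM in control Bergmann-like glia. The difference of -0.68 (SE 0.14, adjusted p = 0.0158 in edgeR) rested on control replicate 2, without which it was -0.17. Iqce had a difference of 3.75 (SE 0.75, adjusted p = 0.00825 in edgeR), with 28.0 and 35.6 CPM in mutant astroglia, against 4.12 and 7.62 CPM in control astroglia, the control values being 2 UMIs and 1 UMI. In Bergmann-like glia Iqce stood at 16.5 and 12.8 CPM in mutants, against 34.2 and 20.8 CPM in controls. Iqce encodes a protein of the ciliary base that acts in Hedgehog signalling, and it lies on chromosome 5, 112 Mb from En2. Pde4d, a cyclic AMP phosphodiesterase, stood at 57.2 and 46.7 CPM in mutant astroglia, against 35.0 and 38.1 CPM in control astroglia, and at 52.5 and 46.0 CPM in mutant and 103 and 125 CPM in control Bergmann-like glia (difference 1.65, SE 0.37, adjusted p = 0.0403 in edgeR). Both mutants were above both controls in astroglia and below both in Bergmann-like glia. Igfbpl1, an insulin-like growth factor binding protein-like gene of immature neurons, had a difference of 0.62 (SE 0.13, adjusted p = 0.00825 in edgeR). It stood at 750 and 1077 CPM in mutant astroglia, against 1528 and 328 CPM in control astroglia, and at 1144 to 4787 CPM in the other kept cells, and with thinned cells the difference turned to -0.21. The Iqce call was lost without the second mutant library or the first control, that of Igfbpl1 without any library but the second control, and that of Pde4d without any 1 of the 4 (adjusted p = 0.0923 to 0.453 in edgeR).

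The same question was put to radial glial progenitors. In all cells 15 of 8808 genes were called (0.17%), 1 positive and 14 negative, and without other-type cells 0 of 8494 genes were called (0.0%), with 372 at an unadjusted p under 0.05 in edgeR (4.38%). The macrophage genes Lyz2 and Fcer1g and 2 haemoglobin genes were among the 15 calls. Apoe stood at 854 and 1642 CPM in mutant astroglia, against 1537 and 745 CPM in control astroglia, and at 402 and 748 CPM in mutant and 239 and 227 CPM in control radial progenitors. Its difference was -1.35 (adjusted p = 0.000438 in edgeR) in all cells and -0.35 (adjusted p = 1.00 in edgeR) without other-type cells, and it turned to 0.15 with thinned cells.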

How the data were processed

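The data are 4 single-cell RNA-seq libraries, 2 En1/2 CKO and 2 control, of tdTomato-sorted cerebellar cells at E15.5, pooled over embryos before Accutase treatment and aimed at 10000 live cells per library, per the labels' protocols (10x Genomics 3' kit). The deposited files hold raw UMI counts of 32286 genes by barcode with no normalization, made by the authors; the submitters' processing notes name Cell Ranger 6.1.0 and mm10, and whether intron reads were counted is not given in the sources used here. The other deposited files hold barcodes and gene names as text. Each column was used, and columns of other samples numbered 0.

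The membership rule was applied to raw counts of barcodes holding 500 genes or more and no more than 10% of mitochondrial UMIs. The members and gene lists were chosen with earlier results of these data known. The rules for Bergmann-like and radial glia were set for this comparison. No doublet step was used; Scrublet (scanpy 1.11.5) served as an alternative, and since its automatic threshold called at most 6 cells in a library, cells were removed from the highest score down, 0.8% for every 1000 barcodes. Counts were summed per library and group and compared with edgeR 4.0.16 (R 4.3.3), using TMM factors, the filterByExpr filter and the quasi-likelihood test, 2-sided, with p-values adjusted by Benjamini-Hochberg over all genes tested and a threshold of 0.05. The interaction of genotype and cell group had the library as a block. The SE of a log2 value was derived from the F statistic. CPM in the text are a group's counts of a gene over that group's total in the library. Shares have exact Clopper-Pearson 95% intervals; these and the floor of 3 counts cover counting error only. Alternatives were DESeq2 1.42.0, RLE size factors, no low-count filter, stricter cells, thinning to 1000 UMIs, other member rules, a replicate block and each library left out. Leaving out other-type cells, leaving out Pla2g7 and the crossed block were chosen after seeing the data.

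Named genes were the selecting genes and markers, the targeted genes, and up to 10 genes in each direction with at least 20 CPM in a group, non-overlapping genotypes and the smallest p; in the interactions, up to 5 called genes in each direction, filled to 3 by the smallest p. Gene group examples were the most abundant members and some chosen after their values were seen, as were Slc1a3, Luzp2, Igfbpl1, Iqce, Mt3 and Pde4d, called without other-type cells. On simulated counts, 18% of 2-fold and 63% of 4-fold differences of effect were recovered against Bergmann-like glia, and 14% and 48% against radial glia. Genes simulated without a difference gave 8 false calls against Bergmann-like glia and 1 against radial glia. Total UMI counts per library, between 5305154 and 21021428, and members' totals, between 134222 and 1100542, set the precision.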

Additional observations from a re-analysis of the deposited data

Results flagged for a closer look

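The genotype effect in astroglia differed from that in Bergmann-like glia, by the interaction test in all cells, for 11 named genes (log2 fold change in astroglia minus that in Bergmann-like glia). Pcp4l1 (4.36) and Atp1b1 (1.62) lie on chromosome 1 with En1. Pcp4l1 stood at 144 and 52.3 CPM in mutant astroglia, against 11.6 and 0 CPM in control astroglia, and without other-type cells its difference was 0.92 (adjusted p = 0.980 in edgeR). Sostdc1 (2.27) and Enpp2 (2.71) are choroid plexus genes, and without other-type cells they stood at -0.29 and -0.053. The haemoglobin genes were Hba-x (1.21), Hba-a1 (-1.61), Hbb-y (-1.55) and Hba-a2 (-3.17), of which the last 3 turned positive without other-type cells. Ifitm3, an interferon-induced gene of vascular and immune cells, differed by -3.22, and by -0.69 without other-type cells (adjusted p = 0.991 in edgeR). Luzp2 (-0.83) and Iqce (3.50) were called in both settings.

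The effect in astroglia differed from that in radial glial progenitors for 6 named genes: Sostdc1 (1.77), Hbb-y (-3.02), Hba-a1 (-2.78), Lyz2 (-12.1), Fcer1g (-6.1) and Apoe (-1.35). None of the 4 of these that could be tested without other-type cells was called there, and Lyz2 and Fcer1g were then too low to be tested. The fitted value of Lyz2 depends on the prior count and is no bound.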

How the results depend on the processing

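The 0 genes called between genotypes in all astroglia became 1 with stricter cells, 1 with thinned cells, 1 with at most 5 pan-neuronal UMIs, 7 with DESeq2 (6 higher, 1 lower) and 110 with no low-count filter (91 higher, 19 lower). The labels do not say whether the replicate numbers pair the samples, and the main fit did not treat them as pairs. The correlation of the replicate differences was -0.22 over 8975 genes, which cannot settle it. A replicate block gave 3 calls and the crossed pairing 26. Leaving out a library, with or without other-type cells, gave 0 to 246 calls; the lone library of a group is then assumed to vary like the others. The 12 calls against Bergmann-like glia became 1 with stricter cells, 20 with at least 3 selecting UMIs, 5 with the pan-neuronal limit, 6 without other-type cells, 1 with DESeq2 and 35 with no filter, and 0 to 51 with a library left out. The 15 calls against radial glia became 2 with thinned cells, 8 with doublets removed, 25 with the pan-neuronal limit, 0 without other-type cells, 4 without Pla2g7 in the rule, 5 with DESeq2 and 26 with no filter, and 0 to 22 with a library left out. The difference in share fell to 0.085 points with stricter cells, with 1.34 to 3.36 points when a library was left out. Of 359 values of named genes between genotypes, 2 changed sign, both of En2, whose log2 fold change ran between -1.83 and 0.45 with a library left out. Against Bergmann-like glia, Hba-a1 and Hbb-y turned to 1.10 and 2.77 with stricter cells, and Hba-a1, Hbb-y and Hba-a2 to 1.05, 1.46 and 0.42 with at least 3 selecting UMIs and to 1.74, 2.08 and 0.54 without Pla2g7. Sostdc1, Hba-x and Igfbpl1 turned to -0.11, -1.22 and -0.21 with thinned cells. Without other-type cells Sostdc1, Enpp2, Hba-a1, Hbb-y and Hba-a2 stood at -0.29, -0.053, 0.10, 0.37 and 1.38. With a library left out, Sostdc1 ran between -0.50 and 4.17, Enpp2 between -0.87 and 3.67, Hba-a1 between -1.96 and 0.86, Hbb-y between -3.94 and 0.41, Hba-a2 between -3.99 and 2.67 and Ifitm3 between -8.13 and 1.07. Against radial glia, Hbb-y turned to 0.011 with stricter cells, 0.034 with at least 3 selecting UMIs, 0.061 without other-type cells and 0.65 without Pla2g7; Hba-a1 turned to 0.11 and 0.66 in the last 2 settings, and Apoe to 0.15 with thinned cells. With a library left out, Sostdc1 ran between -0.037 and 2.56, Hbb-y between -3.17 and 0.083, Hba-a1 between -3.01 and 0.10 and Apoe between -1.57 and 0.37. The fall of counts without other-type cells follows from leaving those cells out; for the other changes the cause was not tested. With 60 members in control replicate 2, genes under 22.4 CPM there rest on fewer than 3 counts.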

Other observations

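Slc14a2, which took no part in the choice, had a ratio of 3.29 between astroglia and radial glial progenitors. Gja1, which encodes the gap junction protein connexin 43, stood at 52.7 and 88.3 CPM in mutant astroglia, against 75.3 and 82.0 CPM in control astroglia, and at 20.4 and 29.2 CPM in mutant and 32.6 and 31.3 CPM in control Bergmann-like glia. Plat, tissue plasminogen activator, stood at 196 and 365 CPM in mutant astroglia, against 257 and 238 CPM in control astroglia, and at 40.5 to 97.3 CPM in the other kept cells. These values are descriptions, as the astroglia were chosen by expression.

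Nid1 stood at 365 and 441 CPM in mutants, against 651 and 812 CPM in controls, which gives log2 -0.85 for mutant over control (SE 0.34, adjusted p = 1.00 in edgeR). In Bergmann-like glia Nid1 stood at 333 and 340 CPM in mutants, against 588 and 433 CPM in controls, and in radial glial progenitors at 308 and 378 CPM in mutants, against 567 and 494 CPM in controls. Both mutants were below both controls in each of these 3 groups of cells.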
